A study of Homo sapiens with 18 samples.

Results

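The genes described here make cholesterol and fatty acids from acetyl-CoA, move or store the sterol that is made, or control the pathway. The list holds 34 genes, taken by name, of 19716 genes named on the array, and each was matched to its probes through the RefSeq accession of the probe. They were read by 38 of 42327 probes, and 4 genes had 2 probes. All 38 probes were well above background on all 18 arrays, so every member was tested. By step, 7 genes belong to the mevalonate steps, 10 to squalene and the later sterol steps, 3 to sterol transport and ester storage, 10 to fatty acid synthesis and 4 to the control of the sterol regulatory element-binding proteins (SREBPs). The list does not hold every gene of the pathway, so counts by step cover the listed genes only, and pathway genes outside it and outside the 25 further genes given at the end were not analysed here.

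The samples were EpCAM+ cells of 2 human hepatocellular carcinoma (HCC) lines, Huh1 and Huh7, and EpCAM is the surface protein by which the cells were sorted. Within each line, 3 arrays came from control cells, 3 from cells given disulfiram (DSF) at 0.1 µM and 3 from cells given 5-fluorouracil (5-FU) at 1 µM, and exposure lasted 48 h before sorting. DSF is an aldehyde dehydrogenase inhibitor, and 5-FU is a pyrimidine analog that disturbs DNA and RNA synthesis. The study asked what DSF does to these cells and set it beside 5-FU. The methods of the study list DSF together with copper chloride, whereas the sample labels name disulfiram alone, and what the control cells received is not given in the sources used here. Each line is a single line. The methods describe the triplicates as coming from 3 independent experiments, the labels do not tie an array to an experiment, and p-values measure the spread between these arrays.

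In this pathway, HMGCS1 joins acetyl-CoA units on the way to mevalonate, and the enzymes from MVK to FDPS turn mevalonate into farnesyl diphosphate. FDFT1 and SQLE make squalene and its epoxide, and LSS closes the sterol ring. The enzymes from CYP51A1 to DHCR7 trim and reduce the ring to cholesterol. SREBF2 encodes the transcription factor SREBP-2, which drives this sterol branch, and SREBF1 encodes SREBP-1, which drives the fatty acid branch. When the membrane is rich in sterol, INSIG1 holds SCAP and its SREBP cargo in the endoplasmic reticulum. When sterol is scarce, SCAP carries SREBP to the Golgi, where it is cut and freed to act on the promoters of most genes named here, INSIG1 and SREBF2 included. Liver cells are among the main makers of both cholesterol and fatty acid.

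SREBP acts on promoters next to the factor NF-Y, which binds the CCAAT box, so promoter windows of 4 members whose values recur below are printed first. Each runs from 250 bases before to 50 after the transcript start, from RefSeq on GRCh38.p14, 5′ to 3′ on the strand of the gene. Capitals mark the CCAAT box (CCAAT, or ATTGG on the other strand) and, in SREBF2, the sterol element TCACCCCAC. SREBF2 lies at chr22:41832855-41833154 on the + strand, MSMO1 at chr4:165327419-165327718 on the + strand, INSIG1 at chr7:155297628-155297927 on the + strand and HMGCS1 at chr5:43313363-43313662 on the - strand. HMGCS1 has a further window, at chr5:43313132-43313431, which holds no CCAAT box and is not printed.
SREBF2: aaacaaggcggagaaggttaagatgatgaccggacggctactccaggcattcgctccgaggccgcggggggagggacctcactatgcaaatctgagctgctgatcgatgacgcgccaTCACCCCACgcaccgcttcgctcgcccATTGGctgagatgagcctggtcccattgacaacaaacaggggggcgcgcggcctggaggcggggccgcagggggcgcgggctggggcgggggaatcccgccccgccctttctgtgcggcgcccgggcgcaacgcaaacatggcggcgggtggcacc
MSMO1: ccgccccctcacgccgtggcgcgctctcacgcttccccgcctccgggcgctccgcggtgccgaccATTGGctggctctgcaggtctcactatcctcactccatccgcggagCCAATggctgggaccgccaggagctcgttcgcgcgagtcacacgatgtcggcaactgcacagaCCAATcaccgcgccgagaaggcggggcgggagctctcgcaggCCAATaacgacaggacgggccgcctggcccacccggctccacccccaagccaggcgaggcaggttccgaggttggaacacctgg
INSIG1: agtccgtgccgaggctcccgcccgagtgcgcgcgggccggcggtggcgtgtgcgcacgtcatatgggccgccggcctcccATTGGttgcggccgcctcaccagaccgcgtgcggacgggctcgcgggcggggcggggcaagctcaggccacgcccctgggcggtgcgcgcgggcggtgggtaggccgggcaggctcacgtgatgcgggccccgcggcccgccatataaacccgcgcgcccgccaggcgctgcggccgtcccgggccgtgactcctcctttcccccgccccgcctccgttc
HMGCS1: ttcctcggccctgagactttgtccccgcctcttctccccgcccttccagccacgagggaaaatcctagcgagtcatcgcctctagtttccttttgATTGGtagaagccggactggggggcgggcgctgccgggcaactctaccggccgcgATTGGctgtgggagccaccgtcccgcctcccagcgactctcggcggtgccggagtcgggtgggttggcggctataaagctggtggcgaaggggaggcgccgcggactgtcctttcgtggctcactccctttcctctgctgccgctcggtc
The exact sterol element was in the window of 1 of the 29 members that have one, SREBF2, where it starts 133 bases before the transcript, and in 0.43% of all 35116 windows of the table. Searched on both strands with any base in the middle position (TCACNCCAC), it was again in SREBF2 alone among the members and in 1.1% of all windows. A CCAAT box was present in a window of 22 of the 29 members (75.9%), in 26 of their 39 windows and in 34.6% of all windows. The GC box GGGCGG was in 27 members (93.1%) against 45.0% of all windows, and the E-box CACGTG in 5 members (17.2%) against 7.3%. Members with several windows had more than 1 chance to hold a motif, and a match is a run of letters, not a shown binding site.

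Values are log2 signals after the 75th percentile of each array was set to 0, so a signal of 1 is 2 times that percentile. On the arrays 59.9% to 71.1% of probes were well above background, and no spot was saturated. Of 9 liver and epithelial markers, among them ALB, AFP, EPCAM, KRT8 and KRT18, all 9 were well above background on every array, and the log2 of their summed signal, which the brightest such as ALB and KRT18 dominate, stayed between 9.74 and 10.03. One by one they moved more: after DSF 6 of the 9 were lower in Huh1 (ALB, AFP, TF, HNF4A, EPCAM and KRT8), and 4 were lower in Huh7 (ALB, TF, HNF4A and EPCAM) with KRT8 (0.42) and KRT18 (0.51) higher. HNF4A, a liver transcription factor, fell by 0.90 in Huh1 and 0.67 in Huh7, and EPCAM itself fell by 0.66 in Huh1 (adjusted p = 0.00633) and by 0.50 in Huh7 (adjusted p = 0.0294), all on the log2 scale. The collagen genes COL1A2 and COL3A1 were not well above background on any array outside Huh7 5-FU. COL1A1 was well above background on all Huh7 arrays, at -3.95, -3.95 and -3.80 in control cells and -5.60, -5.88 and -6.22 after DSF (adjusted p = 0.0230). In contrast, LUM, PECAM1, CDH5, CD14, CD79A and, on its brightest probe, PTPRC, named as markers of other cells, were well above background in all groups. VWF was well above background on every array of Huh1 DSF, Huh7 control and Huh7 DSF, and CD3E on every array of Huh7 DSF alone. Slides follow the groups in part, because Huh1 control, Huh1 5-FU and Huh1 DSF arrays 1 and 2 shared the first slide, Huh1 DSF array 3 lay with Huh7 control, Huh7 5-FU and Huh7 DSF array 1 on the second, and Huh7 DSF arrays 2 and 3 were alone on the third, scanned on another day.

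DSF treatment lowered most of these genes in both lines. In Huh1, 24 of 34 members were lower than in control cells and 2 were higher (limma, adjusted p below 0.05), where 20.3% of all tested probes were called lower and 23.9% higher. In Huh7, 28 were lower and 0 higher, against 19.4% and 27.3% of all tested probes. At an unadjusted p below 0.05 the count of higher members in Huh7 was 0. The median log2 change over the members was -0.37 in Huh1 and -0.81 in Huh7, beside medians of 0.00 and 0.08 over all tested probes. The 9 liver and epithelial markers had medians of -0.53 in Huh1 and -0.22 in Huh7. Called lower in both lines were 19 members: ACAT2, MVK, FDPS, SQLE, LSS, CYP51A1, TM7SF2, MSMO1, EBP, SC5D, DHCR7, SOAT2, ACSS2, ACACA, FASN, ELOVL6, FADS1, FADS2 and SREBF1. Scaled to the 6 spike-in probes instead, 9 members were called lower and 3 higher in Huh1, and 28 and 0 in Huh7. There the median of all probes stood at 0.14 in Huh1 and -0.09 in Huh7, and the share of all calls that were in the higher direction was 74.7% and 34.9% in place of 54.1% and 58.5% (42.9% in Huh1 after median scaling). In these bulk samples fewer cells of a type and less RNA per cell cannot be told apart, and the part of the lower liver and epithelial markers in these values was not tested.

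**Figure D1:**
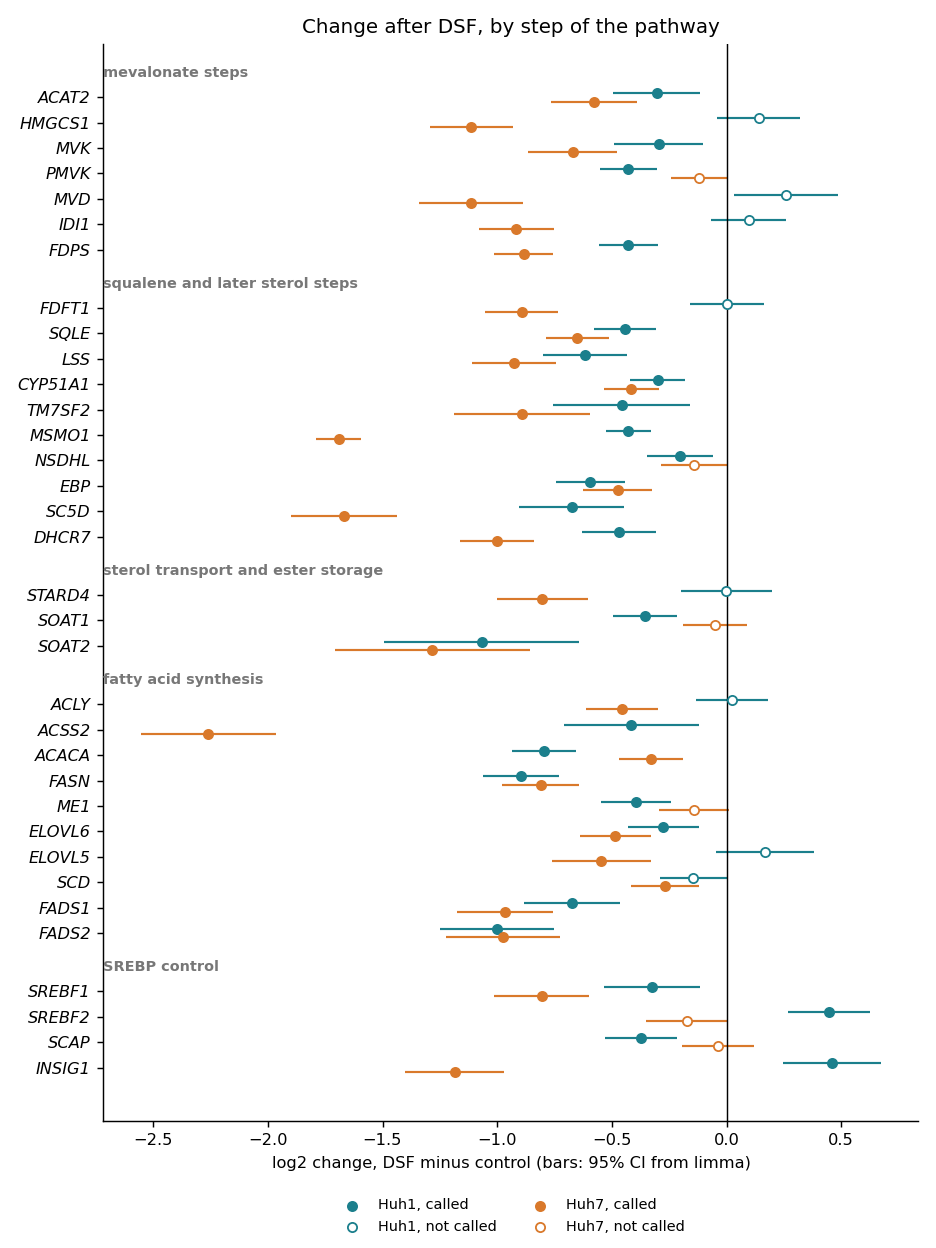
Log2 change after DSF for each member, DSF minus control, on the x axis, with genes grouped by step of the pathway and Huh1 (blue-green) beside Huh7 (orange). Points are limma estimates from 3 arrays per group, bars are 95% intervals, and filled points have an adjusted p below 0.05; all 34 Huh7 points lie below 0, whereas SREBF2 and INSIG1 are filled above 0 in Huh1.

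Of the 7 mevalonate genes, 4 were lower in Huh1 and 6 in Huh7. HMGCS1, the synthase that joins acetyl-CoA units before mevalonate, stood at 4.15, 4.16 and 4.18 on the Huh7 control arrays and at 3.19, 2.96 and 3.01 on the Huh7 DSF arrays. The groups were far apart, and the change was -1.11 (SE 0.084, adjusted p = 1.85e-07), which is 0.462 of the control level. In Huh1 the same gene was at 1.22, 1.32 and 1.33 in control cells and at 1.45, 1.38 and 1.46 after DSF, a change of 0.14 with an interval from -0.04 to 0.32 and an adjusted p of 0.199. The Huh1 groups do not overlap, but the step between them, with an SE of 0.084, was not called. MVD, which decarboxylates mevalonate diphosphate, fell in Huh7 from 2.77, 2.73 and 2.73 to 1.73, 1.59 and 1.58 (-1.11, adjusted p = 1.57e-06). In Huh1 MVD was at 0.53, 0.73 and 0.73 in control cells and 0.86, 0.91 and 1.01 after DSF, 0.26 higher with an adjusted p of 0.0598. It was called higher there in a fit of fewer groups (adjusted p = 0.0315), with a stricter filter on dim probes (0.0473) and after quantile scaling (0.0462). IDI1, the isomerase that makes the reactive isoprene unit, fell by 0.92 in Huh7 and differed by 0.10 in Huh1 (adjusted p = 0.331). FDPS, which builds farnesyl diphosphate, fell in both lines, by 0.43 in Huh1 and by 0.88 in Huh7. ACAT2, the thiolase at the entry, and MVK, the mevalonate kinase, also fell in both, ACAT2 by 0.31 and 0.58 and MVK by 0.30 and 0.67 in Huh1 and Huh7. PMVK, the second kinase, had changes of -0.43 in Huh1 (adjusted p = 3.49e-05) and -0.12 in Huh7 (adjusted p = 0.108).

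Among the 10 squalene and later sterol genes, 9 were lower after DSF in each line. MSMO1, the methyl sterol oxidase that removes ring methyl groups, was at 4.29, 4.27 and 4.28 on the Huh7 control arrays and at 2.56, 2.60 and 2.60 after DSF. Its change of -1.69 (SE 0.046, adjusted p = 5.04e-12) left 0.310 of the control level. In Huh1, where MSMO1 was low, it went from -0.27, -0.21 and -0.24 to -0.67, -0.70 and -0.64, a fall of 0.43. SC5D, the desaturase that acts shortly before DHCR7, fell in Huh7 from -1.05, -1.24 and -1.29 to -3.02, -2.79 and -2.77, a change of -1.67 (adjusted p = 4.34e-08). In Huh1 SC5D went from -3.96, -3.81 and -3.65 to -4.50, -4.31 and -4.63, or 0.626 of control. DHCR7, the last reductase on the way to cholesterol, showed the same separation of groups in both lines. It went from 4.25, 4.59 and 4.51 to 3.96, 3.96 and 4.02 in Huh1 and from 6.03, 6.03 and 6.08 to 5.10, 4.99 and 5.05 in Huh7. The fitted changes of DHCR7 were -0.47 and -1.0.

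FDFT1, squalene synthase, divided the lines: it did not move detectably in Huh1 (2.26, 2.49 and 2.39 against 2.40, 2.36 and 2.38, interval -0.16 to 0.16) and fell by 0.89 in Huh7 (4.70, 4.67 and 4.69 against 3.97, 3.68 and 3.73). SQLE, the epoxidase that follows, fell in both lines, by 0.44 and 0.65. LSS, the cyclase, fell by 0.62 and 0.93 on its brighter probe. CYP51A1, the demethylase, had falls of 0.30 and 0.42, TM7SF2, a ring reductase, of 0.46 and 0.89, and EBP, the isomerase, of 0.59 and 0.47 in Huh1 and Huh7. NSDHL, the dehydrogenase that works with MSMO1, changed little: it was lower by 0.20 in Huh1 (adjusted p = 0.0233), and its difference of -0.14 in Huh7 was not called (adjusted p = 0.101).

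The genes of sterol transport and storage parted. SOAT2, which esterifies cholesterol in liver and intestine, was at -0.14, -0.44 and -0.30 on the Huh1 control arrays and at -1.32, -1.36 and -1.40 after DSF. In Huh7 it went from -0.53, -0.53 and -0.52 to -1.87, -1.79 and -1.76. The changes of -1.07 (SE 0.20) and -1.28 (SE 0.20) left less than 0.48 of the control level in either line. SOAT1, the esterifying enzyme found in most cells, was lower in Huh1 by 0.36 (adjusted p = 0.000425) and differed by -0.05 in Huh7 (adjusted p = 0.538). STARD4, a carrier of cholesterol between membranes, stayed at 0.49, 0.29 and 0.35 against 0.41, 0.42 and 0.31 in Huh1 and fell in Huh7 from -0.10, 0.02 and 0.09 to -0.57, -0.92 and -0.92. That fall was 0.80 (adjusted p = 9.06e-06).

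In the fatty acid branch 7 of 10 members were lower in Huh1 and 9 in Huh7. ACSS2, which makes acetyl-CoA from acetate in the cytosol, had the largest fall of any member in Huh7. It went from 2.15, 2.11 and 2.09 to -0.11, -0.17 and -0.15, a change of -2.26 (SE 0.14, adjusted p = 2.47e-08) that left 0.209 of the control level. In Huh1 ACSS2 was at 0.67, 0.40 and 0.46 in control cells and 0.10, 0.11 and 0.07 after DSF, a change of -0.42 (adjusted p = 0.0240). ACLY, which makes acetyl-CoA from citrate, was at 2.13, 2.22 and 2.17 against 2.19, 2.15 and 2.25 in Huh1 and fell by 0.45 in Huh7. FASN, the fatty acid synthase, fell in both lines by similar amounts, 0.90 in Huh1 and 0.81 in Huh7. ACACA, the acetyl-CoA carboxylase that makes malonyl-CoA, fell from 4.14, 4.09 and 4.20 to 3.36, 3.37 and 3.31 in Huh1 and from 4.0, 4.02 and 4.02 to 3.80, 3.63 and 3.62 in Huh7. These values are from its brighter probe, on which the fall was the larger one in Huh1, 0.80 against 0.33.

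The desaturases and elongases of the branch spread more widely. FADS2, the first desaturase of polyunsaturated fatty acids, went from 5.16, 4.84 and 4.74 to 3.92, 3.90 and 3.91 in Huh1 and from 4.21, 4.28 and 4.21 to 3.31, 3.20 and 3.26 in Huh7, falls of 1.0 and 0.97. FADS1, its partner desaturase, fell by 0.68 and 0.97. SCD, which makes oleate, barely moved, with -0.14 in Huh1 (adjusted p = 0.105) and -0.27 in Huh7 (adjusted p = 0.00537). ELOVL6, which extends palmitate, fell by 0.28 and 0.48. ELOVL5, an elongase of polyunsaturated chains, differed by 0.17 in Huh1 (adjusted p = 0.199) and fell by 0.55 in Huh7. ME1, a source of NADPH for the synthase, fell by 0.40 in Huh1 and differed by -0.14 in Huh7 (adjusted p = 0.12).

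By the probe that represents each gene, 2 members were called higher after DSF, both control genes and both in Huh1. SREBF2, which encodes the sterol factor and carries the sterol element printed above, went from 1.09, 1.31 and 1.23 to 1.59, 1.65 and 1.74 in Huh1, a rise of 0.45 (SE 0.083, adjusted p = 0.000517). In Huh7 it was at 2.35, 2.37 and 2.35 in control cells and 2.27, 2.14 and 2.14 after DSF, a difference of -0.17 with an adjusted p of 0.101. INSIG1, the retention protein, rose in Huh1 from 0.73, 0.72 and 0.77 to 1.24, 1.18 and 1.19, by 0.46 (adjusted p = 0.00171). In Huh7 INSIG1 fell from 3.19, 3.15 and 3.20 to 2.10, 2.00 and 1.89, by 1.19 (adjusted p = 5.04e-07). INSIG1 was the 1 member called in opposite directions in the lines after DSF. SREBF1, the fatty acid factor, fell by 0.33 in Huh1 and by 0.81 in Huh7, and SCAP, the escort, fell by 0.37 in Huh1 and differed by -0.04 in Huh7 (adjusted p = 0.698).

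**Figure D2:**
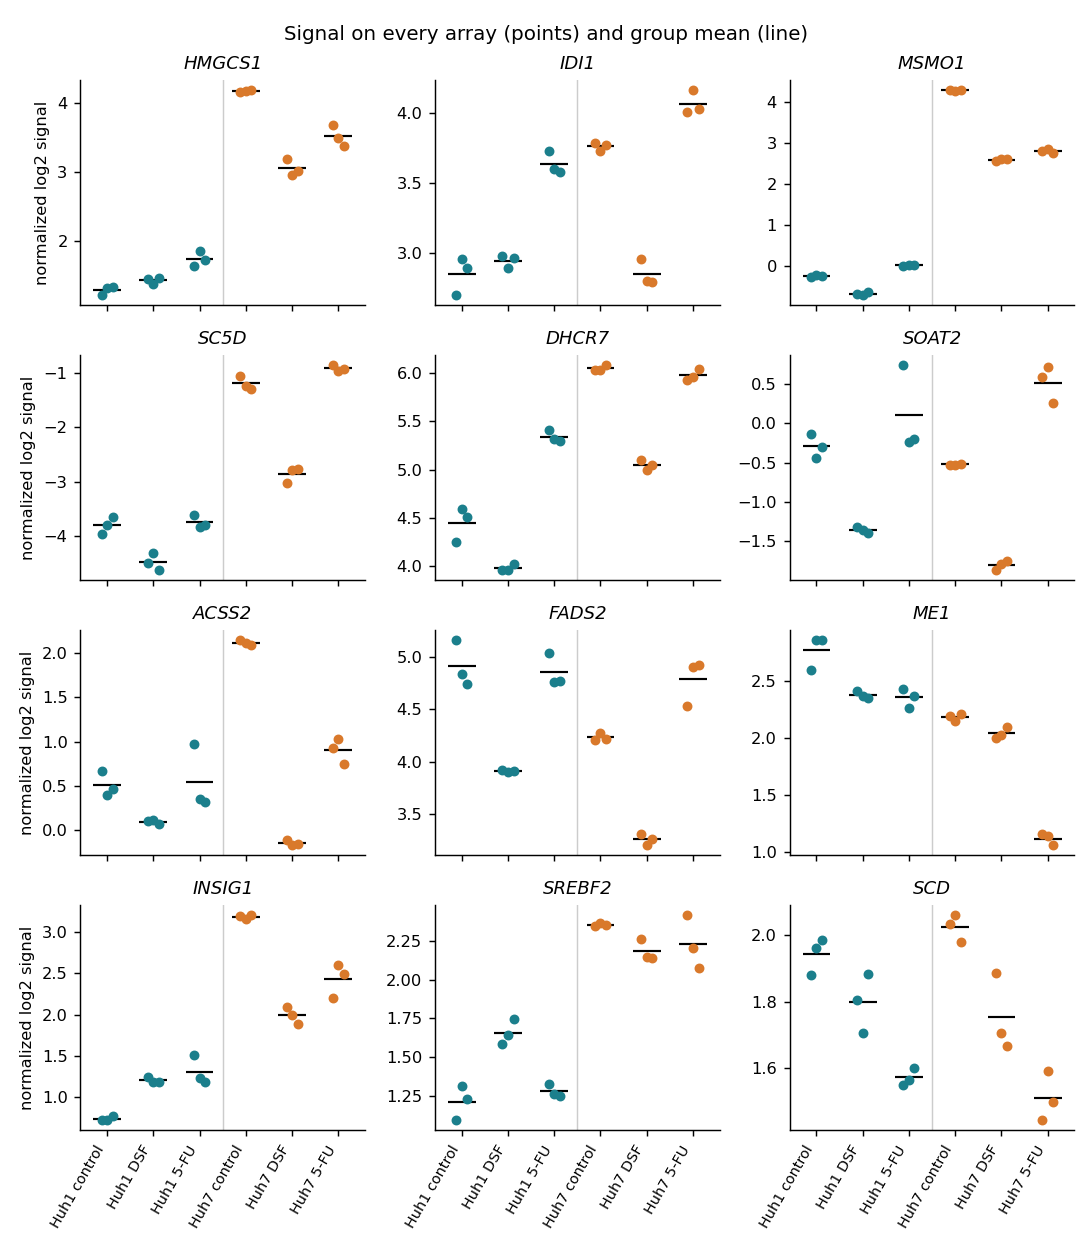
Normalized log2 signal of 12 members on each of the 18 arrays, with Huh1 groups (blue-green) left and Huh7 groups (orange) right of the grey line in each panel; y axes differ between panels. Points are arrays and black lines are means of 3, and MSMO1, SC5D and ACSS2 show Huh7 DSF arrays far below Huh7 control arrays, whereas SREBF2 shows Huh1 DSF arrays above Huh1 control arrays.

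Because the Huh7 DSF arrays lay on 2 slides, the values were also read slide by slide. On the second slide alone, which holds the Huh7 control arrays and 1 DSF array, the median over the members was -0.71 with 33 of 34 below 0. The 2 DSF arrays of the third slide gave -0.81 against the same controls, with 34 below 0. Without those 2 arrays the Huh7 DSF group is 1 array, assumed to vary like the arrays of the other groups. Then 25 members were called lower in Huh7, and ACACA (-0.22, adjusted p = 0.0788), ELOVL5 (-0.29, adjusted p = 0.0699) and SCD (-0.14, adjusted p = 0.287) were no longer called. In Huh1 the first slide gave a median of -0.37. The calls in Huh1 of ACSS2, MVK, NSDHL and TM7SF2 each depended on single arrays. ACSS2 was not called without any 1 of the 3 DSF arrays (adjusted p 0.0525 to 0.0605) or without control array 1 (0.0921), MVK without DSF array 2 (0.0514) or control array 1 (0.0649), TM7SF2 without control array 2 (0.0579) or 3 (0.0596), and NSDHL without DSF array 1 (0.0590) or 2 (0.0848) or control array 1 (0.0650) or 2 (0.0625). No call in Huh7 after DSF was lost on leaving out 1 array.

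The DSF effect itself was compared between lines by the interaction term of the fit. It was more negative in Huh7 for 16 members and less negative or more positive for 4, where 19.2% of all probes were called in the first direction and 21.1% in the second. The largest differences, Huh7 minus Huh1, were -1.84 for ACSS2 (adjusted p = 7.04e-06), -1.65 for INSIG1 (adjusted p = 1.20e-06), -1.37 for MVD, -1.26 for MSMO1 and -1.25 for HMGCS1. By step, 5 of 7 mevalonate genes, 4 of 10 later sterol genes, 3 of 10 fatty acid genes and 3 of 4 control genes had the more negative effect in Huh7, as did STARD4. With spike-in scaling the split of 16 and 4 became 21 and 0. On that scale the median of all probes was -0.25, and 17.1% of all calls were in the positive direction in place of 52.3%. With quantile scaling the split was 20 and 2, and 53.8% of all calls were in the positive direction. The 4 with the opposite difference were ACACA (0.47 on its brighter probe), SCAP (0.34), PMVK (0.31) and SOAT1 (0.30). The effect of DSF on FASN, FADS2, EBP, NSDHL and CYP51A1 was not called different between lines, and the intervals of the difference were -0.15 to 0.32 for FASN, -0.33 to 0.38 for FADS2, -0.09 to 0.33 for EBP, -0.14 to 0.27 for NSDHL and -0.29 to 0.05 for CYP51A1.

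5-FU moved the same genes in both directions. In Huh1, 9 members were lower and 13 higher than in control cells, against 26% and 22.2% of all tested probes. In Huh7, 18 were lower and 7 higher, against 29.7% and 27.3%. The median over the members was 0.04 in Huh1 and -0.21 in Huh7, beside -0.03 and -0.05 over all probes. These directions are relative to the bulk of the probes, because the 75th percentile of each array was set to 0. Over the 6 spike-in probes, that percentile was higher after 5-FU by 0.83 in Huh1 and 0.99 in Huh7 on the log2 scale. The cause of that offset was not tested. Scaled to the spike-in probes, the median of all probes was 0.80 and 0.94 higher after 5-FU, 98.4% and 95.7% of all calls were in the higher direction in place of 46.1% and 47.9%, and 30 members were called higher in Huh1 (0 lower) and 26 in Huh7 (1 lower). All 5-FU and control arrays of a line shared 1 slide.

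**Figure D3:**
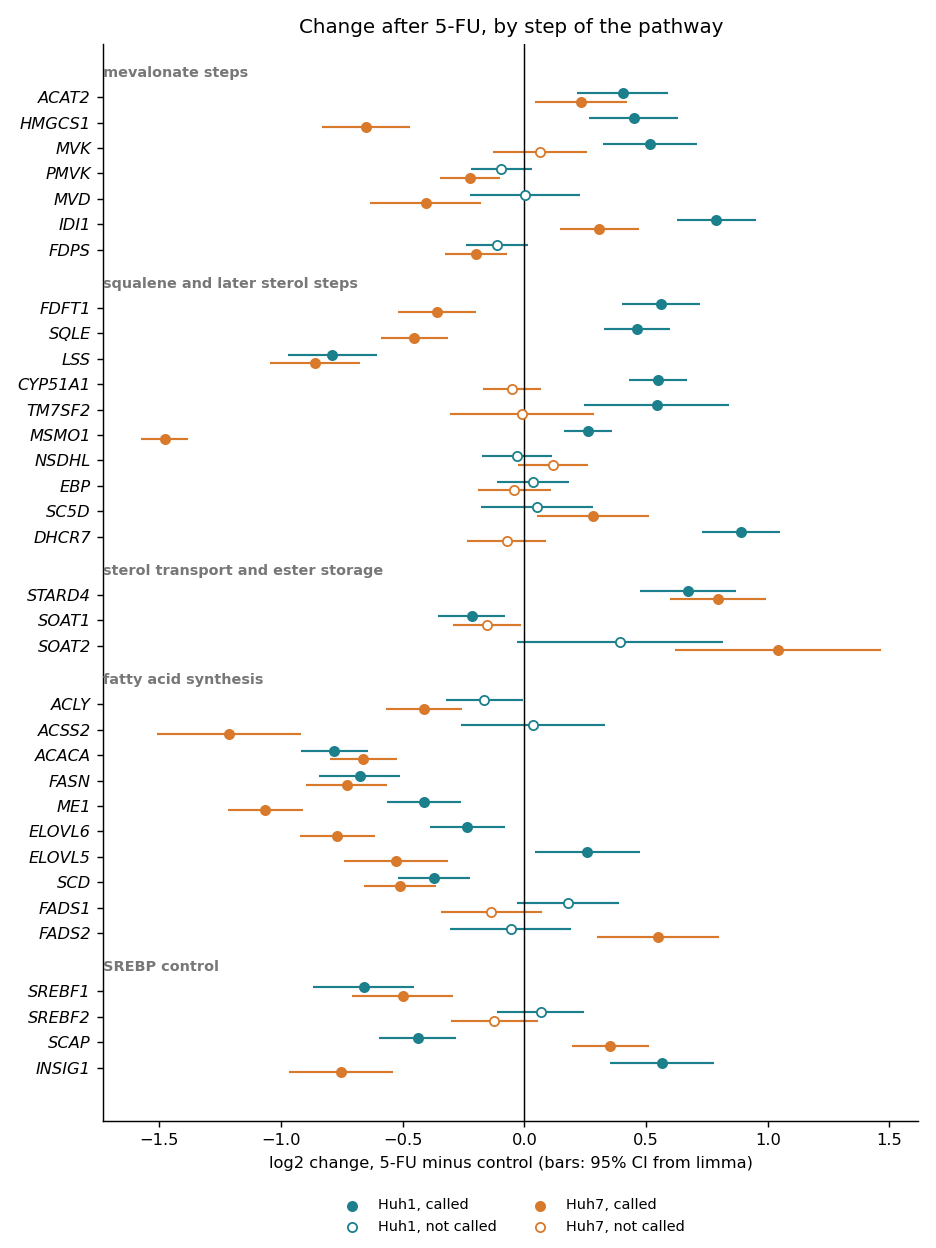
Log2 change after 5-FU for each member, 5-FU minus control, on the x axis, with genes in the same order as for DSF and Huh1 (blue-green) beside Huh7 (orange). Points are limma estimates from 3 arrays per group, bars are 95% intervals, and filled points have an adjusted p below 0.05; values are relative to the 75th percentile of each array, and with spike-in scaling 0 members in Huh1 and 3 in Huh7 would lie below 0. On the scale shown, most sterol genes lie right of 0 in Huh1, and FASN, ACACA, SCD, ME1, ELOVL6 and SREBF1 lie left of 0 in both lines.

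In Huh1, 4 of 7 mevalonate genes and 6 of 10 later sterol genes were higher after 5-FU. DHCR7 rose from 4.25, 4.59 and 4.51 to 5.41, 5.32 and 5.30, by 0.89 (SE 0.075, adjusted p = 5.35e-07). IDI1 rose from 2.70, 2.96 and 2.89 to 3.73, 3.60 and 3.58, by 0.79, and STARD4 from 0.49, 0.29 and 0.35 to 1.03, 1.1 and 1.03, by 0.67. In these 3 genes every 5-FU array was above every control array, and how often this held over all probes was not counted. The other sterol genes that rose in Huh1 were FDFT1 (0.56), CYP51A1 (0.55), TM7SF2 (0.54), MVK (0.52), SQLE (0.46), HMGCS1 (0.45), ACAT2 (0.40) and MSMO1 (0.26). FDPS, PMVK, NSDHL, MVD, EBP and SC5D were not called, with values from -0.11 (FDPS) to 0.05 (SC5D). LSS fell by 0.79 on its brighter probe and rose by 0.41 on the other (adjusted p = 0.0211).

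In Huh7 the same branch was mixed. MSMO1 fell from 4.29, 4.27 and 4.28 to 2.80, 2.85 and 2.74, by 1.48 (adjusted p = 3.49e-11), and HMGCS1 fell from 4.15, 4.16 and 4.18 to 3.68, 3.48 and 3.38, by 0.65. LSS (0.86), SQLE (0.45), MVD (0.41), FDFT1 (0.36), PMVK (0.22) and FDPS (0.20) also fell, the value in brackets being the size of each fall. STARD4 rose from -0.10, 0.02 and 0.09 to 0.71, 0.82 and 0.87, by 0.80, and SOAT2 rose from -0.53, -0.53 and -0.52 to 0.58, 0.71 and 0.26, by 1.04 (adjusted p = 0.000405). IDI1 (0.31), SC5D (0.28) and ACAT2 (0.23) rose by less. The rises of SC5D and ACAT2 in Huh7 depended on single arrays, with adjusted p from 0.0527 to 0.151 where the call was lost: SC5D without 5-FU array 1, 2 or 3 or control array 2 or 3, and ACAT2 without 5-FU array 2 or 3 or control array 1, 2 or 3. After quantile scaling, DHCR7 (0.28), EBP (0.47) and FDPS (0.16) were called higher in Huh7 after 5-FU, whereas with the percentile scaling FDPS was called lower (-0.20) and DHCR7 (-0.07) and EBP (-0.04) were not called. Huh7 5-FU arrays also had a summed signal of the 4 fibroblast markers of 1.51 to 1.62 against -1.03 to -0.95 in Huh7 control cells, almost all of it LUM. COL1A2 was well above background on 2 of the 3 Huh7 5-FU arrays, COL3A1 on 1 of the 3, and neither on any Huh7 control array. COL1A1 differed by 0.56 after 5-FU in Huh7 (adjusted p = 0.498). The part of these markers in the values of the sterol genes was not tested.

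Relative to the bulk of the probes, 5 of 10 members of the fatty acid branch were lower after 5-FU and 1 higher in Huh1. In Huh7, 8 were lower and 1 higher. Of all tested probes 26% were lower and 22.2% higher in Huh1, and 29.7% and 27.3% in Huh7. FASN fell by 0.68 in Huh1 and 0.73 in Huh7, and ACACA, on its brighter probe only, by 0.78 and 0.66. ME1 fell from 2.60, 2.86 and 2.86 to 2.43, 2.27 and 2.37 in Huh1 and from 2.19, 2.15 and 2.21 to 1.16, 1.13 and 1.06 in Huh7, which is 0.751 and 0.478 of control. SCD (0.37 and 0.51) and ELOVL6 (0.23 and 0.77) fell in both lines too, and ACSS2 fell in Huh7 by 1.21 and differed by 0.04 in Huh1 (adjusted p = 0.853). The fall of ELOVL6 in Huh1 was not called without 5-FU array 2 (adjusted p = 0.0698) or control array 3 (0.0606), nor that of SOAT1, 0.22 in Huh1, without 5-FU array 2 (0.0587) or control array 2 (0.0625). FADS2 was the 1 fatty acid gene that rose in Huh7, from 4.21, 4.28 and 4.21 to 4.53, 4.90 and 4.92. ACLY fell by 0.41 in Huh7 and differed by -0.17 in Huh1 (adjusted p = 0.0775), and FADS1 was called in neither line.

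Among the control genes, SREBF1 fell after 5-FU by 0.66 in Huh1 and 0.50 in Huh7, and SREBF2 was called in neither, at 0.07 and -0.12. INSIG1 rose by 0.56 in Huh1 and fell by 0.75 in Huh7, and SCAP fell by 0.44 in Huh1 and rose by 0.35 in Huh7. Called in opposite directions in the lines after 5-FU were 7 members: ELOVL5, FDFT1, HMGCS1, INSIG1, MSMO1 and SQLE were higher in Huh1 and lower in Huh7, and SCAP was the reverse. The call of ELOVL5 in Huh1 (0.26, adjusted p = 0.0457) was lost without any 1 of the 3 5-FU arrays or without control array 1 or 2 (adjusted p 0.0513 to 0.196). The interaction term called 17 members different between lines under 5-FU, 15 of them more negative in Huh7, against 17.8% of all probes in that direction and 18.8% in the other. The largest differences were -1.74 for MSMO1, -1.32 for INSIG1, -1.25 for ACSS2 and -1.1 for HMGCS1, and SCAP (0.79) and FADS2 (0.61) were the 2 in the other direction. With spike-in scaling 7 were more negative in Huh7 and 2 more positive. There the median of all probes was 0.14, and 66.4% of all calls were in the positive direction in place of 51.3%.

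DSF and 5-FU were then compared directly, at 0.1 µM against 1 µM and the same 48 h. The doses differ, so the comparison is between these 2 treatments and not between equal amounts. In Huh1, 21 members were lower with DSF than with 5-FU and 4 were higher, against 20.6% and 28.7% of all probes. In Huh7, 23 were lower and 4 higher, against 25% and 35.6%. The medians were -0.32 and -0.41, beside 0.08 and 0.12 over all probes. Relative to the spike-in probes 33 members were called lower with DSF in each line and 0 higher. On that scale all probes had a median of -0.61 for Huh1 and -1.04 for Huh7, and 6.8% and 3.3% of all calls were in the higher direction in place of 58.2% and 58.8%.

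**Figure D4:**
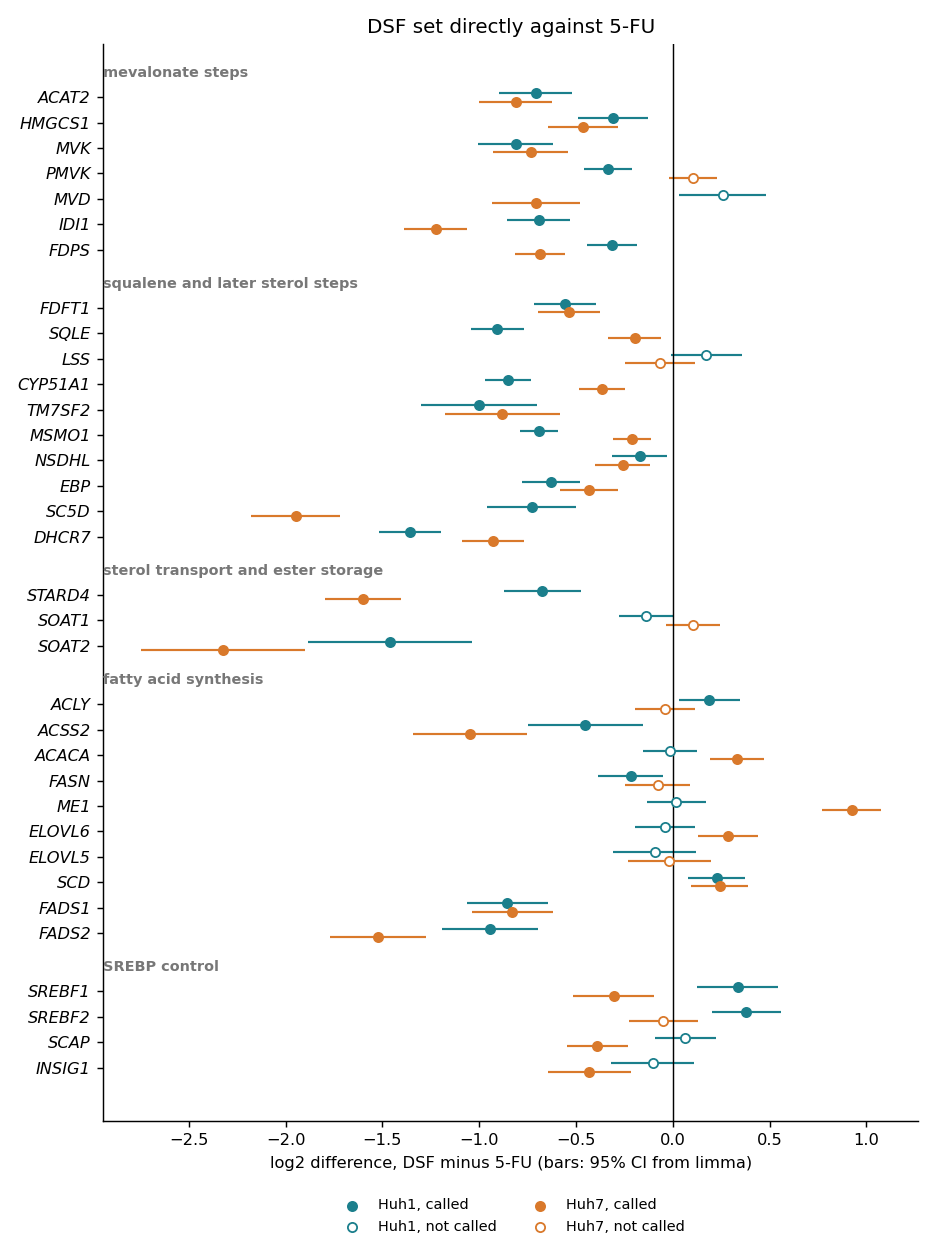
Log2 difference between the treatments, DSF minus 5-FU, on the x axis, with genes grouped by step and Huh1 (blue-green) beside Huh7 (orange). Points are limma estimates from 3 arrays per group, bars are 95% intervals, and filled points have an adjusted p below 0.05; SOAT2, DHCR7 and FADS2 lie far left in both lines, whereas SCD is filled right of 0 in both.

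Most of the members that were lower with DSF than with 5-FU were sterol genes. Of the 17 genes of the mevalonate and later sterol steps, 15 were lower with DSF than with 5-FU in Huh1 and 15 in Huh7, and 0 were higher in either line (unadjusted p below 0.05: 1 higher in Huh1 and 0 in Huh7). SOAT2 was at -1.32, -1.36 and -1.40 with DSF and 0.74, -0.24 and -0.20 with 5-FU in Huh1, and at -1.87, -1.79 and -1.76 with DSF and 0.58, 0.71 and 0.26 with 5-FU in Huh7. The difference of -2.32 in Huh7 (SE 0.20, adjusted p = 2.13e-07) was the largest of any member. SC5D differed by -0.73 in Huh1 and -1.95 in Huh7, STARD4 by -0.67 and -1.60, DHCR7 by -1.36 and -0.93, and IDI1 by -0.69 and -1.22.

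The fatty acid genes were divided. FADS2 (-0.94 and -1.52), FADS1 (-0.86 and -0.83) and ACSS2 (-0.45 and -1.05) were lower with DSF in both lines, whereas SCD was higher with DSF in both (0.23 and 0.24). ME1 differed by 0.02 in Huh1, with an interval from -0.14 to 0.17, and by 0.92 in Huh7 (adjusted p = 8.11e-08). For FASN the difference was -0.22 in Huh1 (adjusted p = 0.0308) and -0.08 in Huh7 (interval -0.25 to 0.09). ACACA, on its brighter probe, had an interval from -0.15 to 0.12 in Huh1 and was 0.33 higher with DSF in Huh7. SREBF1 was called in opposite directions, 0.33 higher with DSF in Huh1 and 0.31 lower in Huh7, and SREBF2 was 0.38 higher with DSF in Huh1 and differed by -0.05 in Huh7 (adjusted p = 0.622). On the first slide alone the median over the members was -0.34 in Huh1, and on the second slide alone it was -0.35 in Huh7.

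Before treatment the lines already differed in this pathway. On control arrays 24 members were higher and 6 lower in Huh7 than in Huh1, against 34.5% and 36.2% of all probes, and the median difference was 0.93 beside -0.05 over all probes. All 7 mevalonate genes and 9 of 10 later sterol genes were higher in Huh7. MSMO1 differed the most, at 4.29, 4.27 and 4.28 in Huh7 and -0.27, -0.21 and -0.24 in Huh1, 22.9 times as much signal (adjusted p = 1.56e-17). HMGCS1 was 7.34 times, SC5D 6.12 times, INSIG1 5.42 times, FDFT1 4.94 times and MVD 4.23 times the Huh1 signal. FADS1 (-1.25), FADS2 (-0.68), ME1 (-0.59), NSDHL (-0.56), STARD4 (-0.38) and SOAT1 (-0.31) were lower in Huh7. ACACA, SCD, SREBF1 and SOAT2 were not called different. The Huh1 control arrays all lay on the first slide and the Huh7 control arrays all on the second, each beside treated arrays. With slide as a term, 28 members were called, 23 higher in Huh7. Among the groups only Huh1 DSF had arrays on both of these slides, with array 3 alone on the second. The slide term for this comparison therefore rests on that 1 array.

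**Figure D5:**
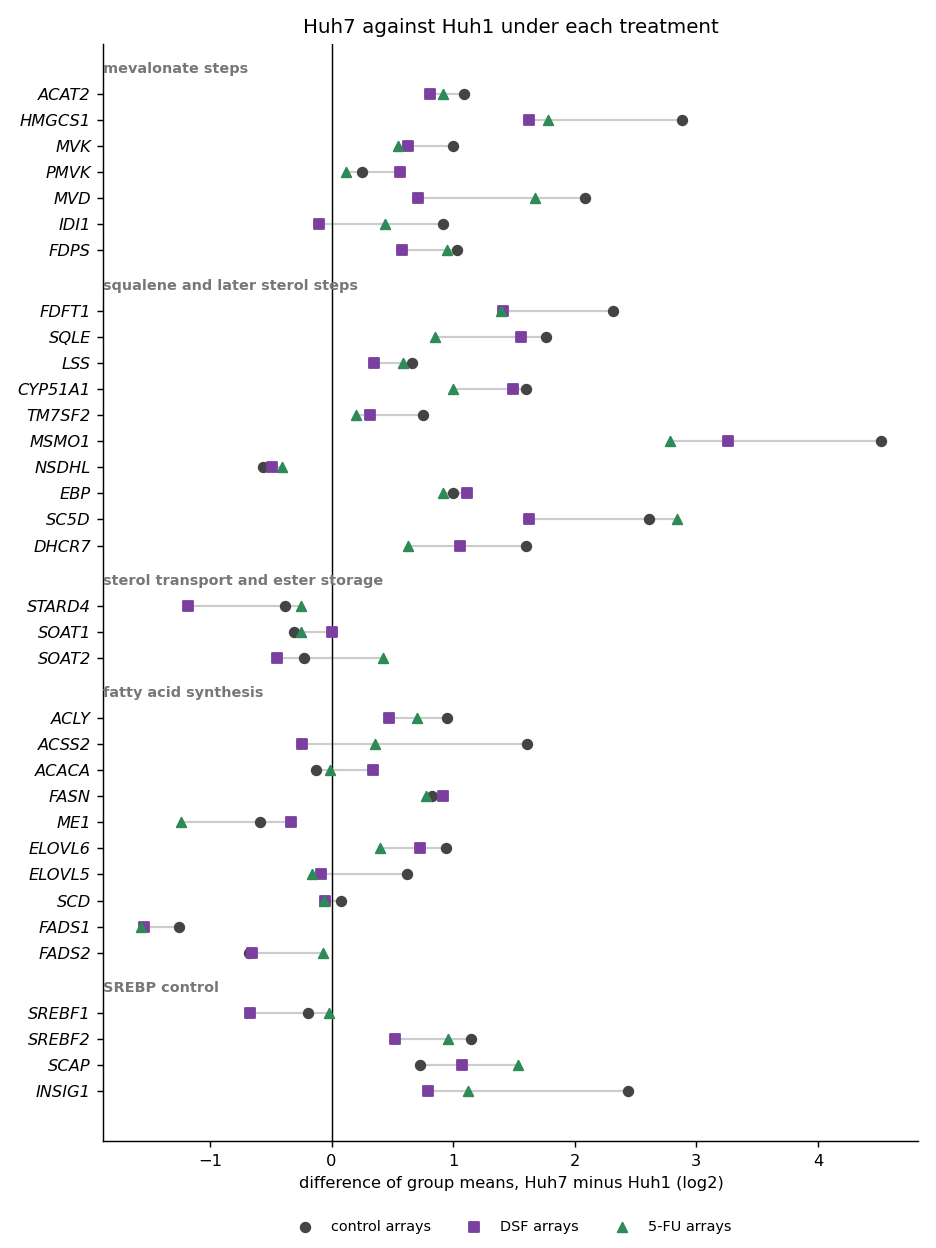
Difference of group means between lines, Huh7 minus Huh1 on the log2 scale, for each member under control (circles), DSF (squares) and 5-FU (triangles), with genes grouped by step. Each mean is over 3 arrays and the grey line spans the 3 differences; most sterol genes lie right of 0 under every treatment, and the squares of IDI1 and ACSS2 lie left of 0 where their circles lie near 1 or beyond.

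Set side by side with no test, the median difference between lines over the members was 0.93 in control cells, 0.54 after DSF and 0.57 after 5-FU. In that order 13, 9 and 7 members were higher in Huh7 by more than 1. In the other direction, FADS1 was at -1.25, -1.54 and -1.57, STARD4 at -1.18 after DSF and ME1 at -1.24 after 5-FU. For IDI1 the difference was 0.92 in control cells and -0.10 after DSF, and for ACSS2 it was 1.61 and -0.24. MSMO1 remained 3.26 higher in Huh7 after DSF. Taken against Huh1 control cells, Huh7 cells after DSF were still higher for 20 of 34 members, with a median difference of 0.14.

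The 4 genes with 2 probes show where a gene value rests on the choice of probe. The dimmer probe of LSS had -0.05 after DSF in Huh1 (adjusted p = 0.777), where the brighter had -0.62, and 0.41 after 5-FU in Huh1, where the brighter had -0.79 and the mean of both had -0.19 (adjusted p = 0.117). In Huh7 both LSS probes were lower after either treatment. The dimmer ACACA probe had -0.14 in Huh1 and -0.13 in Huh7 after DSF and was not called. It did not show the fall of the brighter probe after 5-FU. Its group means were 0.20 in control cells and 0.22 after 5-FU in Huh1, and 0.35 and 0.39 in Huh7. In Huh7 its mean was 0.22 after DSF, below that after 5-FU, whereas the brighter probe was higher with DSF there. The dimmer SREBF1 probe was called after neither treatment in either line. The dimmer ELOVL5 probe rose by 0.85 after DSF in Huh1 (adjusted p = 2.01e-05), where the brighter differed by 0.17. Averaged over its probes ELOVL5 was higher after DSF in Huh1 (0.51), and the fall of SREBF1 there was not called (-0.14, adjusted p = 0.268).

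Of 25 further genes of the pathway, all tested, 13 were lower and 4 higher after DSF in Huh1, and 19 were lower and 1 higher in Huh7. Of all tested probes 20.3% were lower and 23.9% higher in Huh1, and 19.4% and 27.3% in Huh7. Of the 4 further sterol and isoprenoid genes, GGPS1, HSD17B7, ERG28 and TMEM97, TMEM97 was lower after DSF in Huh1 and all 4 were lower in Huh7, and in both lines all 4 were lower with DSF than with 5-FU. HSD17B7, a sterol ketoreductase, had 3 probes, and the brightest was at -0.91, -0.85 and -0.87 in Huh1 control cells and at -1.28, -1.25 and -0.10 after DSF. The first 2 DSF arrays were below the controls and the third above, whereas another probe fell by 0.47 (adjusted p = 0.000661) and the remaining one differed by -0.24 (adjusted p = 0.0691). The 6 genes of sterol export and of the LXR receptors, which respond to surplus sterol, were lower in 3 cases and higher in 2 in Huh1 and lower in all 6 in Huh7. The 2 were MYLIP and ABCG1, and ABCG1 was not well above background on any Huh1 control or DSF array, so its value there is a difference between background signals. Called in both lines with the largest mean falls were ACACB, the carboxylase at the mitochondrial surface (-0.75 in Huh1 and -1.42 in Huh7), SLC25A1, the citrate carrier (-0.91 and -0.60), and ABCA1, a sterol exporter (-0.81 and -0.67). ACSL5, an acyl-CoA synthetase, rose in both (0.55 and 0.71). MYLIP, an LXR target that marks lipoprotein receptors for degradation, rose in Huh1 by 1.02 and fell in Huh7 by 0.62. After 5-FU, 9 of the 25 were lower and 8 higher in Huh1, and 6 were lower and 2 higher in Huh7, where all tested probes had 26% lower and 22.2% higher in Huh1 and 29.7% and 27.3% in Huh7. The shares of the 25 in Huh7 were thus below those of all probes in both directions.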

How the data were processed

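Cy3-labeled cRNA from 100 ng of RNA was hybridized to SurePrint G3 Human arrays, 1 colour, 18 arrays. The authors deposited the scanner output of Agilent Feature Extraction (version 10.7.1.1 per the labels), and its processed signal intensity, corrected for background by that software, was used here. The authors also deposited a table of intensities divided by the 75th percentile of each array, on a linear scale, whose log2 equals the values used here to within 0.05 and served as an alternative. With 100 ng of RNA taken per array, a change in total RNA per cell is not measured under either percentile or spike-in scaling.

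For each probe, the log2 processed signal was averaged over spots without an outlier flag and the 75th percentile of the array was subtracted. A probe was tested where every array of some group had it well above background (29894 probes). They were fitted together over the 6 groups with limma 3.58.1 in R 4.3.3 (lmFit and eBayes), p-values were adjusted by Benjamini-Hochberg over all tested probes, and an adjusted p below 0.05 was called. The brightest tested probe represented a gene. A two-sided exact rank test of 3 against 3 arrays, such as the Mann-Whitney test the methods name, cannot go below p = 0.1. With 3 arrays per group, the number of arrays limits the precision. Gene names came from the RefSeq table of GRCh38.p14, by accession, for 25732 probes. Replicate numbers did not pair arrays: deviations of the 18 same-numbered pairs correlated from -0.093 to 0.024.

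Alternatives were quantile, median and spike-in scaling, normexp background correction (on the median signal, as the files hold no mean signal), the deposited table of scaled intensities, other probe filters, the mean over probes, a further minimum of 1.5-fold, slide as a block, a replicate block, fits of fewer groups, and leaving out each array. The members and gene lists were chosen with earlier results of these data known. All 34 members are named, with values by array where results turn on them, and of the further genes those called in both lines with the largest mean falls and rises after DSF (up to 3 each). Promoter windows were not at hand for 5 members, which were not analysed for motifs. Of the further genes, 1 listed at the start is not reported here.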

Additional observations from a re-analysis of the deposited data

Results flagged for a closer look

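For 20 members the change after DSF differed between the lines by the interaction term of the limma fit (adjusted p below 0.05), and the values given are the log2 change in Huh7 minus that in Huh1. The change was more negative in Huh7 for ACSS2 (-1.84), INSIG1 (-1.65), MVD (-1.37), MSMO1 (-1.26), HMGCS1 (-1.25), IDI1 (-1.01), SC5D (-0.99), FDFT1 (-0.90), STARD4 (-0.80), ELOVL5 (-0.71), SREBF2 (-0.62), DHCR7 (-0.53), ACLY (-0.48), SREBF1 (-0.48), FDPS (-0.46) and MVK (-0.38). It was more positive in Huh7 for SOAT1 (0.30), PMVK (0.31), SCAP (0.34) and ACACA (0.47).

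For 17 members the change after 5-FU differed between the lines by the same test. It was more negative in Huh7 for MSMO1 (-1.74), INSIG1 (-1.32), ACSS2 (-1.25), HMGCS1 (-1.10), DHCR7 (-0.96), SQLE (-0.92), FDFT1 (-0.92), ELOVL5 (-0.79), ME1 (-0.65), CYP51A1 (-0.60), TM7SF2 (-0.55), ELOVL6 (-0.53), IDI1 (-0.48), MVK (-0.45) and MVD (-0.41). It was more positive in Huh7 for FADS2 (0.61) and SCAP (0.79). The control arrays of each line enter both sets of differences, so the sets are not independent of each other.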

How the results depend on the processing

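The counts of members called kept within 1.5 times their value under every alternative except those named here, and the medians over the members kept their sign except as given below. Scaled to the spike-in probes, 9 members were lower after DSF in Huh1 in place of 24, 33 were lower with DSF than with 5-FU in Huh1, and 9 had a 5-FU effect that differed between lines, and the median change after 5-FU in Huh7 was 0.77 in place of -0.21. The spike-in fit moves every probe of an array by the same amount. With a further minimum of 1.5-fold, 8 members were lower after DSF in Huh1, 7 were called after 5-FU in Huh1, 11 were called after 5-FU in Huh7, 13 were lower with DSF than with 5-FU in Huh7, and 11 had a DSF effect that differed between lines. Under quantile scaling the changes after 5-FU in Huh7 of FDPS (0.16), EBP (0.47) and DHCR7 (0.28) turned positive, and under normexp that of SC5D after 5-FU in Huh1 was -0.17 in place of 0.05; the cause was not tested.

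Leaving out 1 array at a time gave 21 to 23 members lower after DSF in Huh1, 28 in every case in Huh7, 20 to 21 called after 5-FU in Huh1, 23 to 27 in Huh7, 19 to 20 lower with DSF than with 5-FU in Huh1, 21 to 23 in Huh7, 19 to 23 with a DSF effect and 15 to 19 with a 5-FU effect that differed between lines, and 30 different between controls. The median after 5-FU in Huh1 ran from -0.019, without Huh1 5-FU array 1, to 0.087, without array 2. With slide as a fixed block, 24 members were lower after DSF in Huh1. In Huh7 that block leaves the DSF value to array 1 alone, because the third slide holds only Huh7 DSF arrays. The median over the members there was -0.705, the same as with the third slide left out. With the replicate block, which rests on numbers the data do not pair, 23 members were lower after DSF in Huh1 and 28 in Huh7, 22 and 23 were called after 5-FU, 19 and 23 were lower with DSF than with 5-FU, and 19 and 15 had a DSF and a 5-FU effect that differed between lines. A block within each line gives no value for the difference between the control cells of the lines.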
